A study of Mus musculus with 12 samples.

Results

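The genes described are those for the proteins of the mitochondrial ribosome, taken as every gene of the deposited mouse tables whose symbol is Mrpl or Mrps followed by a number, with or without a final a, b or c. The rule found 78 genes of 27179, of which 49 carry a large subunit symbol (Mrpl) and 29 a small subunit symbol (Mrps). RNA was sequenced from dorsal cortex, the roof of the embryonic forebrain that becomes neocortex and hippocampus, of C57BL/6 mice. The groups were embryos with a D6-Cre conditional knockout of Ash2l (Ash2l cKO) at E14.5 and at E16.5 and wild-type (WT) embryos at both ages, with 3 libraries in each of the 4 groups. Ash2l encodes a shared subunit of the complexes that methylate histone H3 at lysine 4. The D6 driver is active in the dorsal telencephalon, so cells outside its domain in the dissected tissue, such as vessels, blood and immigrant interneurons, keep the gene. The labels do not say whether WT embryos carried loxP alleles or whether tissue was pooled. Libraries are lettered A, B and C within a group by the first number in their titles, lowest first.

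The mitochondrial ribosome sits in the matrix and translates the few messages of mitochondrial DNA, which encode core subunits of the respiratory chain and the ATP synthase. Its ribosomal RNAs come from mitochondrial DNA, while all of its proteins are nuclear-encoded, made in the cytosol and imported. Part of them descend from bacterial ribosomal proteins, and part were added in the mitochondrial lineage. Nuclear respiratory factor 1 (NRF1), the ETS-family factor GABP and YY1 are known regulators of nuclear genes for mitochondria, and neural progenitors and neurons both depend on mitochondrial translation. Symbol and place do not always match: Mrps30 and Mrps18a lie in the large subunit, and the protein of Mrps36 is known as a subunit of the oxoglutarate dehydrogenase complex. By place, 51 members belong to the large subunit and 26 to the small one.

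Promoter windows of 300 bases, 250 before and 50 after the annotated start, were available from RefSeq on GRCm38.p6 for 69 members. They were searched on both strands for an NRF1 motif (GCGCA, any base, then GCGC), an ETS motif (CCGGAA) and a YY1 motif (AANATGGC), counting each motif separately where matches overlapped. At least 1 of the 3 motifs was present in 55 of the 69 windows (79.7%), against 38.2% of the 11493 windows of all genes tested and 23.1% of 27025 windows of all genes. The ETS motif was in 39 member windows (56.5%, against 26.6% of the windows of genes tested), the YY1 motif in 21 (30.4%, against 8.24%) and the NRF1 motif in 13 (18.8%, against 9.99%). Of the windows with the NRF1 motif, 10 were among the 43 large subunit windows and 3 among the 26 small subunit windows. The windows were also rich in CpG, with a median observed-to-expected CpG ratio of 0.818 in members and 0.756 in genes tested. The following upstream sequences are shown, each as the 250 bases before the start, 5′ to 3′ on the strand of the gene, with motif matches in capitals (an ETS match on the other strand reads TTCCGG).

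Mrpl32 was the only member whose window held all 3 motifs, Mrps27 held the most matches, and Mrps26 had a single ETS match next to its start besides 2 NRF1 matches at and after the start that lie outside the stretch shown.
Mrpl32, chr13:14613038-14613287, minus strand: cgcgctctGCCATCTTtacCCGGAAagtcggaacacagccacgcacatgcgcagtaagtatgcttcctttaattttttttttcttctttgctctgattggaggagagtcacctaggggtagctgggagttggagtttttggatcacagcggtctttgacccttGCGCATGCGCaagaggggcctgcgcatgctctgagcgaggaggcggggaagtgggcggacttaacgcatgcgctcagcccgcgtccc
Mrps27, chr13:99344536-99344785, plus strand: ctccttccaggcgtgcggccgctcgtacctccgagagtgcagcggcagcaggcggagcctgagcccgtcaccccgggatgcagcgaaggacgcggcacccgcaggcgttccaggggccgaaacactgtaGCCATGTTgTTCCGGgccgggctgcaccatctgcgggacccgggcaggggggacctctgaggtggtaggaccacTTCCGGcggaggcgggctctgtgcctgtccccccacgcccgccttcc
Mrps26, chr2:130563507-130563756, plus strand: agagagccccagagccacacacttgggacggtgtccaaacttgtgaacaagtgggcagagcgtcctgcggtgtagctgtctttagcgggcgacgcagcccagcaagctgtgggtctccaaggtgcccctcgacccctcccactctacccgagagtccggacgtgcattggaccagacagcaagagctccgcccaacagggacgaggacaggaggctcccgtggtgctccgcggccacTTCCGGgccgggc

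Mrps25 and Mrps23 are shown because they passed the test in the E16.5 cKO cortex described below.
Mrps25, chr6:92184024-92184273, minus strand: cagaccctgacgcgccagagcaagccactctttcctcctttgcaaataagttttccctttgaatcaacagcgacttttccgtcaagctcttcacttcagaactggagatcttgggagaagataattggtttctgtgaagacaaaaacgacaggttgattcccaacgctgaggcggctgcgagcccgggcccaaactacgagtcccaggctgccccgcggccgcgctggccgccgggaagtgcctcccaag
Mrps23, chr11:88204138-88204387, plus strand: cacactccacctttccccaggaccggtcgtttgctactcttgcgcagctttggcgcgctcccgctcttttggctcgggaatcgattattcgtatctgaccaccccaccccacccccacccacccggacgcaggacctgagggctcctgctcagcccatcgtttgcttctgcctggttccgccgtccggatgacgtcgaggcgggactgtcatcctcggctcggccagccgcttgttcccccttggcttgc
These stretches of Mrps25 and Mrps23 hold no match, and the window of Mrps23 had 1 ETS match within the 50 bases after its start. The windows of Mrpl41, Mrpl23, Mrps36 and Mrpl20, which also recur below, held none of the 3 motifs.

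The 12 libraries held between 14318147 and 24719047 fragments assigned to genes, of which the 78 members took 0.148% to 0.186%. Ash2l, the targeted gene, averaged 53.2 ± 5.76 CPM (counts scaled to library size) in cKO and 129 ± 13.2 CPM in WT at E14.5, and 57.0 ± 3.63 CPM in cKO and 134 ± 3.27 CPM in WT at E16.5 (SD, n = 3 each; edgeR adjusted p = 0.0124 and 8.19e-04). The E14.5 difference missed the threshold without WT C (adjusted p = 0.0885) or cKO C (0.108). All 3 cKO libraries of E14.5 came from female and all 3 WT libraries from male embryos by their X- and Y-linked transcripts, so genotype and sex cannot be told apart at that age; at E16.5, cKO C and WT A were female. Summed pan-neuronal markers were lower in cKO. At E14.5 they were at 2774 to 4709 CPM in cKO and 4755 to 6786 CPM in WT. At E16.5 they were at 5173 to 5452 CPM in cKO and 7028 to 7579 CPM in WT. Of the 15 markers 10 passed the test as lower at E16.5, and only Nefm did at E14.5. No estimate was positive at either age, with a median log2 fold change of cKO over WT of -0.60 at E14.5 and -0.53 at E16.5. Of 13 apical progenitor markers 1 rose at E14.5 and 3 at E16.5. Of all genes tested 0.352% were higher and 1.66% lower at E14.5, and 5.98% higher and 9.88% lower at E16.5. The progenitor markers had sums of 2737 to 3346 CPM in cKO and 2495 to 2860 CPM in WT at E14.5, and 1908 to 2672 CPM in cKO and 1873 to 2340 CPM in WT at E16.5. No gene of these lists was at 0. The library cKO A of E14.5 also held more meningeal and red blood cell RNA than the others of its age (512 and 692 CPM, against at most 97.3 and 324 CPM). Choroid plexus markers summed to 489 CPM in WT A of E14.5 and 633 CPM in WT C of E16.5, against at most 61.5 CPM in the other libraries. GABAergic and ventral markers were at 75.3, 340 and 140 CPM in WT A, B and C of E14.5. The cKO libraries of that age, at 25.7 to 97.9 CPM, overlapped them.

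All 78 members were detected in every library and passed the filter on low counts, and the lowest count of any member in any library was 55. Levels between genes are compared as CPM divided by the annotated exon length in kilobases (FPKM). Averaged over the 12 libraries, members lay between 6.14 and 57.4 FPKM with a median of 15.4 FPKM, and 64 of the 78 were above 8.91 FPKM, the median of the 15338 genes tested. The median was 14.6 FPKM for large and 15.97 FPKM for small subunit members, with the quartiles of all members between 10.03 and 22.1 FPKM.

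The large subunit proteins with the highest levels were Mrpl13, a homologue of a bacterial core protein, at 57.4 FPKM (SD 5.80 over the 12 libraries), Mrpl30 at 50.6 FPKM (SD 4.64), Mrpl24 at 38.2 FPKM (SD 4.76) and Mrpl12, part of the stalk that recruits translation factors, at 36.9 FPKM (SD 5.90). In the small subunit they were Mrps17 at 38.2 FPKM (SD 1.71), Mrps21 at 29.2 FPKM (SD 5.88), Mrps5 at 28.9 FPKM (SD 2.21) and Mrps16 at 26.3 FPKM (SD 1.99). The ranges over libraries of Mrpl13 (48.98 to 70.5 FPKM) and Mrpl30 (42.5 to 56.3 FPKM) overlapped, and Mrpl24, Mrps17 and Mrpl12 did not differ beyond their spread. The lowest were Mrpl17 at 6.14 FPKM (SD 0.604), Mrpl19 at 6.16 FPKM (SD 0.536), Mrps28 at 6.60 FPKM (SD 1.41), Mrps36 at 6.87 FPKM (SD 1.28), Mrpl35 at 6.88 FPKM (SD 0.624) and Mrps25 at 7.19 FPKM (SD 1.17), which overlap in their spreads. Mrpl17, Mrps25, Mrpl19 and Mrpl35 have annotated exon lengths of 6712, 6076, 5016 and 3695 bases in a set that starts at 407 bases, and the length enters their FPKM directly.

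**Figure D1:**
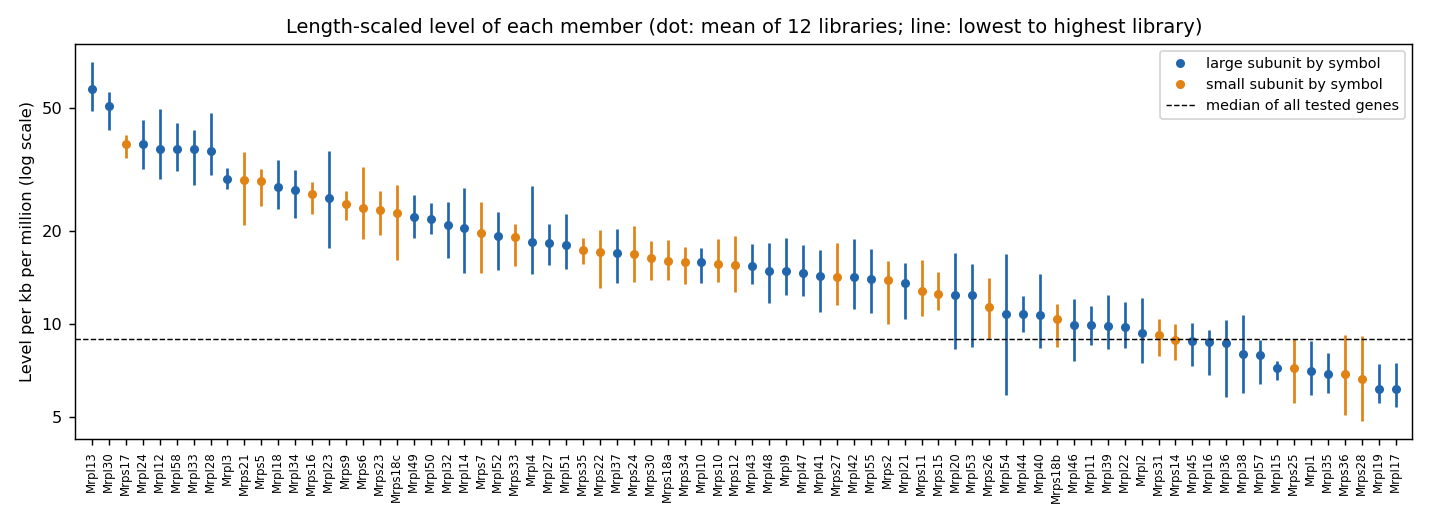
Level of each of the 78 members in FPKM, as the mean over the 12 libraries with a line from the lowest to the highest library. Members of both subunits are ordered together by mean level, with the subunit shown by colour. Means run from 6.14 to 57.4, and the highest library of a member is a median of 1.496-fold above its lowest.

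Across the 12 libraries the highest level of a member was a median of 1.496-fold above its lowest, against 1.90-fold over all genes tested. Those genes were not matched to the members in level, and 64 of the 78 members lay above their median level. The steadiest members were Mrpl15 (1.16-fold) and Mrpl3 (1.18-fold). The members that spanned more than 2-fold were Mrpl54 (2.86-fold), Mrpl23 (2.06-fold) and Mrpl20 (2.04-fold).

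The summed level of the 78 members was slightly higher in cKO than in WT cortex at both ages. At E14.5 it was 1857, 1762 and 1732 CPM in cKO A, B and C, against 1620, 1618 and 1633 CPM in WT A, B and C. All 3 cKO libraries lay above all 3 WT libraries, with means of 1783 ± 65.2 CPM in cKO and 1623 ± 8.03 CPM in WT (SD, n = 3 each). By the means of the log2 sums, cKO was 9.80% above WT. At E16.5 it was 1626, 1627 and 1619 CPM in cKO A, B and C, against 1570, 1503 and 1548 CPM in WT A, B and C, again without overlap. Here the means were 1624 ± 4.35 CPM in cKO and 1540 ± 34.2 CPM in WT, and cKO was 5.47% above WT by the same log2 measure. The size depended on the scaling at E16.5: with library totals alone in place of trimmed-mean factors the differences were 10.9% at E14.5 and 10.6% at E16.5. In tissue RNA, fewer cells of a type and less RNA per cell cannot be told apart, and the lower neuronal marker sums given above moved with the same groups; their part in the result was not tested.

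**Figure D2:**
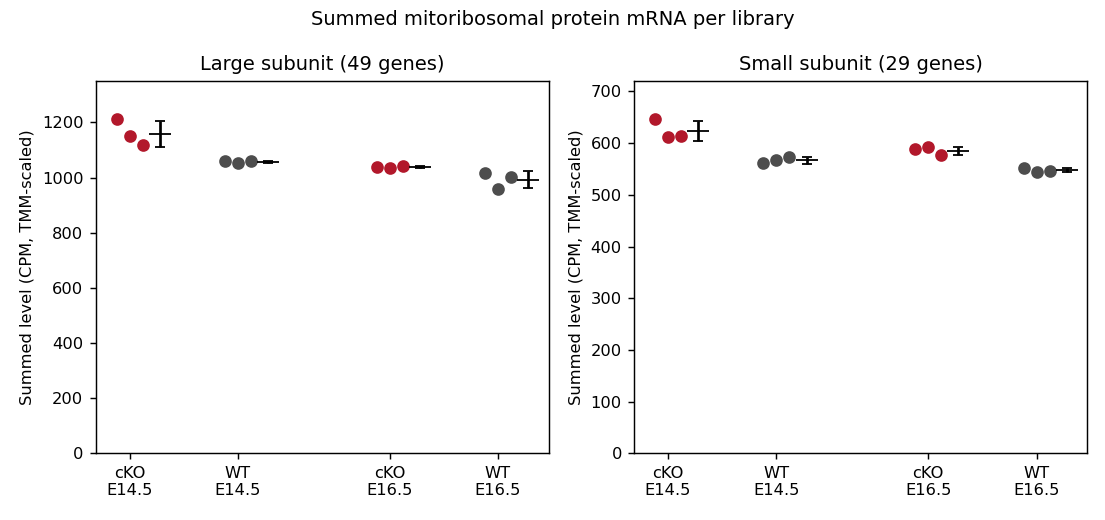
Summed CPM of the large and of the small subunit members in each library, cKO left of WT at each age, with the group mean. The 3 cKO libraries sit above the 3 WT libraries in both subunits at both ages.

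Both subunits showed this. At E14.5 large subunit members summed to 1160 ± 47.1 CPM in cKO and 1056 ± 4.61 CPM in WT, and small subunit members to 624 ± 19.2 CPM in cKO and 567 ± 6.55 CPM in WT. At E16.5 the large subunit was at 1038 ± 3.58 CPM in cKO and 992 ± 30.6 CPM in WT, and the small subunit at 585 ± 7.81 CPM in cKO and 548 ± 3.94 CPM in WT. The ratio of large to small subunit sums stayed between 1.75 and 1.89 in all 12 libraries.

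In the E14.5 cKO cortex no single member passed the test (edgeR quasi-likelihood, adjusted p under 0.05), where 2.01% of the 14788 genes tested did, 0.352% higher and 1.66% lower. At an unadjusted p under 0.05 there were 10 members, 9 higher and 1 lower, while 20.2% of genes tested reached it. DESeq2 called 3 members higher (Mrps7, Mrpl28 and Mrpl49) and 1 lower (Mrpl23), against 2.01% and 6.99% of genes. A single fit over all 12 libraries called these and Mrps25, 4 higher and 1 lower, against 2.16% and 6.55% of genes. With embryo sex in that fit none passed, against 0.835% of genes. Its sex term is estimated from the E16.5 libraries alone and carried to E14.5, where sex and genotype coincide. An E14.5 call lost in that fit is therefore not shown to come from sex. The estimates lay mostly on one side: 70 of 78 members (89.7%) had a positive log2 fold change, cKO over WT, against 53.9% of all genes tested. The median was 0.11 over members (0.12 large, 0.10 small) and 0.03 over all genes tested, with members between -0.53 and 0.36 and a median standard error (SE) of 0.118. All 3 cKO libraries lay above all 3 WT libraries for 17 members, and below them for 2, against 12.6% and 14.6% of genes tested. Without cKO A, the library with more meningeal and blood RNA, the median was 0.08, the lowest with any 1 library of that age left out; the highest was 0.14.

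The highest E14.5 estimates were those of 3 small subunit members, with Mrpl28 and Mrpl37 of the large subunit level with them at 0.34. Mrps24, a homologue of a bacterial protein at the messenger entry, had 20.9, 20.2 and 20.3 CPM in cKO A, B and C, against 15.7, 14.6 and 17.6 CPM in WT A, B and C. The groups did not overlap, but the log2 fold change of 0.36 (SE 0.112) missed the threshold (edgeR adjusted p = 0.144). Mrps7, a homologue of a bacterial small subunit head protein, had 32.9, 30.0 and 31.8 CPM in cKO, against 25.4, 24.2 and 25.1 CPM in WT, with a log2 fold change of 0.34 (SE 0.0897, edgeR adjusted p = 0.0960). Its cKO libraries were all above its WT libraries. Mrps25, which has no bacterial counterpart, had 50.7, 54.0 and 49.5 CPM in cKO, against 39.0, 37.1 and 44.6 CPM in WT (log2 fold change 0.35, SE 0.104, edgeR adjusted p = 0.124).

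In the other direction, Mrpl23, a large subunit protein near the exit of the nascent chain, was the member with the largest difference. It had 11.9, 12.1 and 13.2 CPM in cKO A, B and C, against 17.2, 18.03 and 18.5 CPM in WT A, B and C. The groups were far apart relative to their spread, and the log2 fold change of -0.53 (SE 0.110) missed the threshold in edgeR (adjusted p = 0.0593) and passed in DESeq2 (adjusted p = 0.00501). In the authors' deposited table Mrpl23 was the 1 member called at this age, with a log2 ratio of WT over KO of 0.50 (SE 0.14, adjusted p = 0.00807), where 7.91% of genes with an adjusted p were called. Mrpl16, next by size, was at -0.15 (edgeR adjusted p = 0.574), and Mrpl20 at -0.11 (edgeR adjusted p = 0.671).

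In the E16.5 cKO cortex 3 members rose and none fell, among 15.9% of the 14865 genes tested that were called, 5.98% higher and 9.88% lower. With 3 of 78 members called, the share lay below that of all genes. Mrps25 and Mrps23 belong to the small subunit and Mrpl41 to the large one, and all are proteins added to the ribosome in the mitochondrial lineage. Positive estimates were seen for 59 of 78 members (75.6%, against 52.6% of genes tested), and the median log2 fold change was 0.10 over members (0.12 large, 0.09 small) and 0.02 over all genes. Members ranged from -0.49 to 0.58 with a median SE of 0.109, and 19 had an unadjusted p under 0.05, 16 higher and 3 lower, against 31.6% of genes tested. All cKO libraries lay above all WT libraries for 22 members and below them for 9, against 15.8% and 21.1% of genes tested. DESeq2 called the same 3 higher and Mrpl23 lower, against 7.06% and 11.9% of genes, and 1 fit over all 12 libraries 5 higher and 2 lower, against 5.32% and 6.95%. Without WT B or cKO B no member passed, and without WT A 1 did. The share of all genes called in these fits is not given here. The median over members lay between 0.07 and 0.13 with any 1 library left out.

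**Figure D3:**
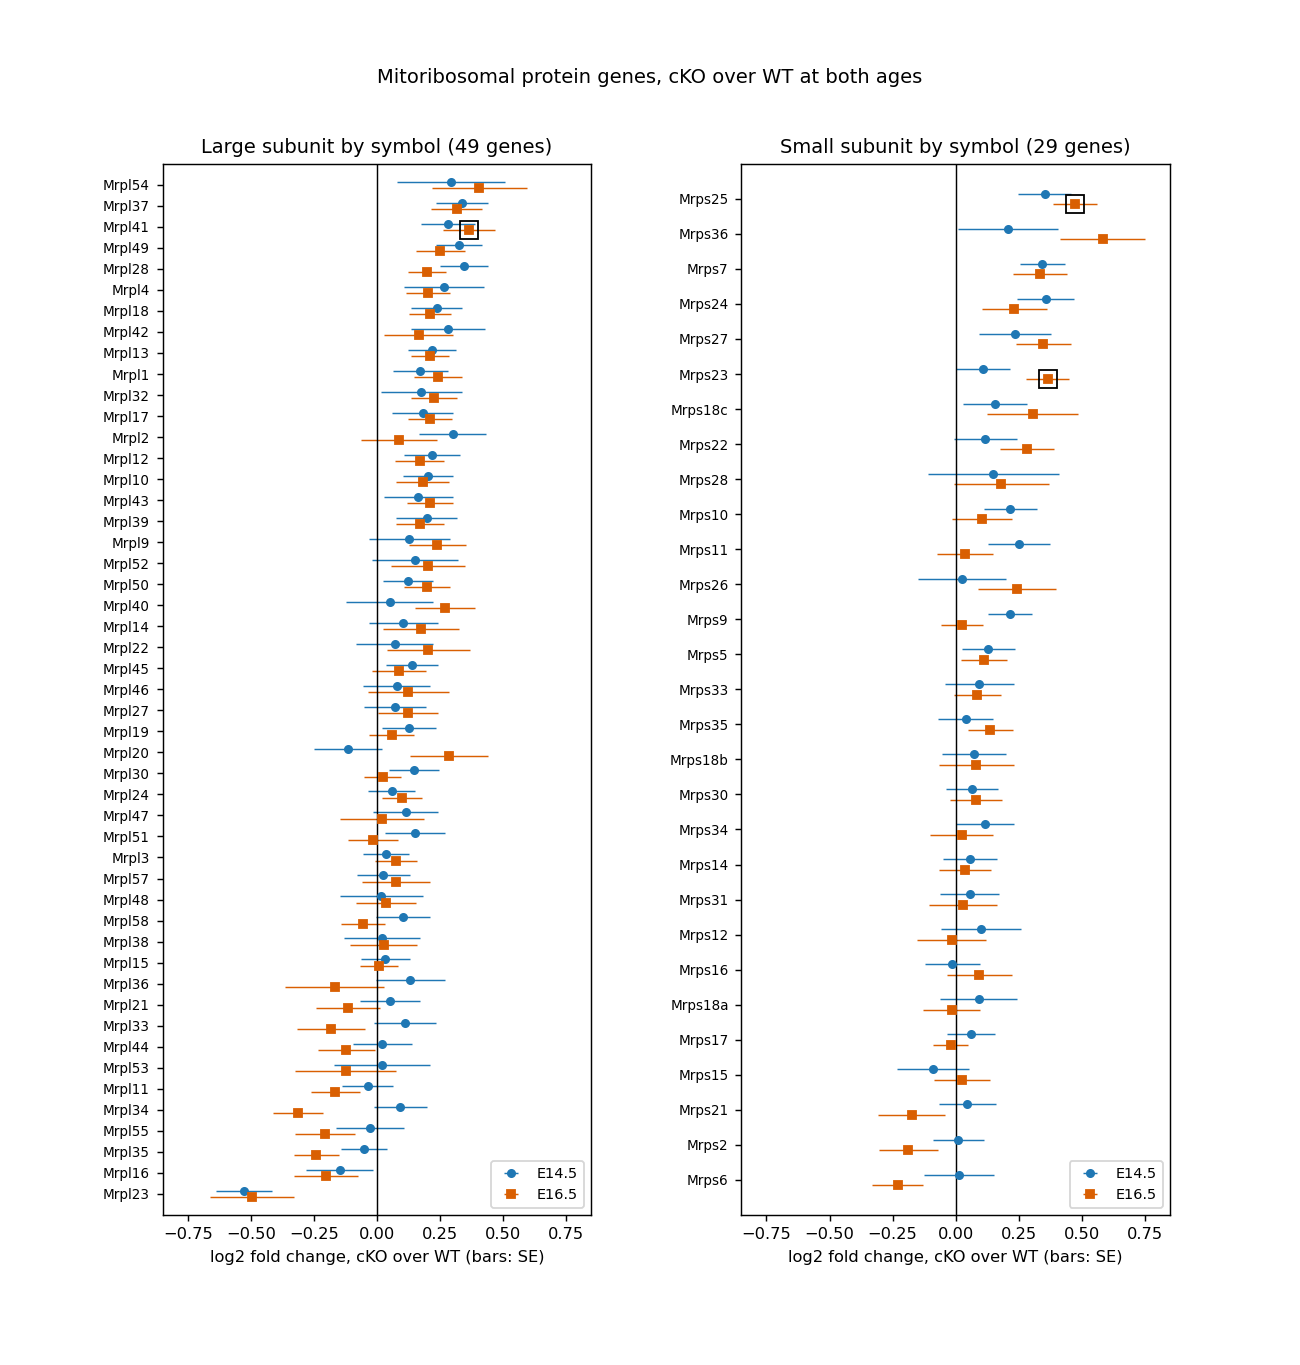
Log2 fold change of cKO over WT with its standard error for each member at E14.5 and E16.5, by subunit. Most points lie to the right of 0, 70 of 78 at E14.5 and 59 of 78 at E16.5, and Mrpl23 lies furthest left at both ages.

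Mrps25 (Entrez 64658, mm10 chr6:92169512-92184023, minus strand, 4 exons) had 49.4, 50.6 and 43.7 CPM in cKO A, B and C of E16.5, against 36.4, 35.8 and 33.6 CPM in WT A, B and C. The cKO libraries were all above the WT libraries, as they were at E14.5. The difference of 0.47 on the log2 scale (SE 0.0879) passed at an edgeR adjusted p of 0.0114, and missed the threshold when WT B (adjusted p = 0.0519) or cKO B (adjusted p = 0.0597) was left out. The authors' deposited table gave a log2 ratio of WT over KO of -0.45 (adjusted p = 4.17e-04).

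Mrps23 (Entrez 64656, chr11:88204418-88211507, plus strand, 5 exons) had 32.8, 34.0 and 32.6 CPM in cKO, against 25.5, 28.3 and 25.1 CPM in WT at E16.5, again without overlap. The estimate was 0.36 on the log2 scale (SE 0.0845, edgeR adjusted p = 0.0250). At E14.5 its groups overlapped, at 34.99, 29.7 and 31.5 CPM in cKO, against 27.4, 31.7 and 30.1 CPM in WT (log2 fold change 0.11, edgeR adjusted p = 0.606). Its E16.5 value missed the threshold with WT A (adjusted p = 0.0904), WT B (0.0573), WT C (0.0735) or cKO B (0.103) left out.

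Mrpl41 (Entrez 107733, chr2:24972470-24975098, minus strand, 2 exons) had 39.7, 37.1 and 34.7 CPM in cKO, against 30.6, 26.4 and 31.4 CPM in WT at E16.5 (log2 fold change 0.37, SE 0.101, edgeR adjusted p = 0.0466). At E14.5 it had 36.6, 42.0 and 39.2 CPM in cKO, against 30.0, 31.5 and 35.3 CPM in WT, with a log2 fold change of 0.28 that did not pass (edgeR adjusted p = 0.199). The groups were separate at both ages. Its E16.5 call, the closest to the threshold, was lost without WT A (adjusted p = 0.0999), WT B (0.162), WT C (0.0628), cKO A (0.0748) or cKO B (0.138), and with embryo sex in the fit (0.0612). In the authors' deposited table Mrps23 and Mrpl41 were also called at E16.5, both with a log2 ratio of WT over KO of -0.34 (adjusted p = 0.0120 and 0.0280), and with Mrps25 they were the 3 members called, where 17% of genes with an adjusted p were.

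Title numbers are shared by 1 cKO and 1 WT library, and the main fit above did not use them. With these numbers as a replicate block 8 members rose and 2 fell at E16.5, against 14.3% and 17.9% of genes tested. Besides Mrps25 (log2 fold change 0.47, edgeR adjusted p = 9.85e-04), Mrps23 (0.37, 0.00611) and Mrpl41 (0.37, 0.0114), the higher members under the block were Mrpl37 (0.32, 0.0176), Mrps27 (0.35, 0.0184), Mrps36 (0.59, 0.0226), Mrps7 (0.34, 0.0281) and Mrpl1 (0.24, 0.0439). The lower ones were Mrpl23 (-0.49, 0.00814) and Mrpl34 (-0.31, 0.0384).

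Mrps36 (chr13:100735940-100744659, minus strand) had the largest E16.5 estimate. It was at 6.36, 5.50 and 6.59 CPM in cKO A, B and C, against 4.54, 3.63 and 4.38 CPM in WT A, B and C. The groups did not overlap, and the log2 fold change of 0.58 (SE 0.170) narrowly missed without the block (edgeR adjusted p = 0.0548). At E14.5 it was at 5.35, 4.98 and 4.69 CPM in cKO, against 4.97, 3.81 and 4.20 CPM in WT, which overlap (log2 fold change 0.21, edgeR adjusted p = 0.598). Mrpl54, next by size at E16.5, had a log2 fold change of 0.41 (SE 0.188, edgeR adjusted p = 0.183).

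Mrpl23 (Entrez 19935, chr7:142533117-142540742, plus strand, 5 exons) again had the lowest estimate at E16.5, with 13.2, 12.5 and 10.3 CPM in cKO A, B and C, against 21.1, 15.8 and 15.1 CPM in WT A, B and C. Its groups did not overlap, with a log2 difference of -0.49 (SE 0.166) that missed the threshold in edgeR (adjusted p = 0.0826) and passed in DESeq2 (adjusted p = 0.0485). Without WT A, the highest of its libraries, the log2 difference was -0.33. The authors' deposited table gave a log2 ratio of WT over KO of 0.45 (adjusted p = 0.0503). Mrpl23 lies beside the imprinted gene H19, whose own log2 fold changes were -0.02 at E14.5 and -0.05 at E16.5 (edgeR adjusted p = 0.987 and 0.896).

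Mrpl34 and Mrpl35 followed Mrpl23 among the lower estimates at E16.5. Mrpl34 had 15.3, 14.2 and 16.2 CPM in cKO, against 20.3, 19.0 and 18.4 CPM in WT, and did not overlap (log2 fold change -0.31, SE 0.100, edgeR adjusted p = 0.0732). Mrpl35 had 22.1, 23.6 and 25.9 CPM in cKO, against 29.7, 27.8 and 28.7 CPM in WT (log2 fold change -0.24, SE 0.0892, edgeR adjusted p = 0.108). At E14.5 both were near 0, at 0.09 and -0.05.

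**Figure D4:**
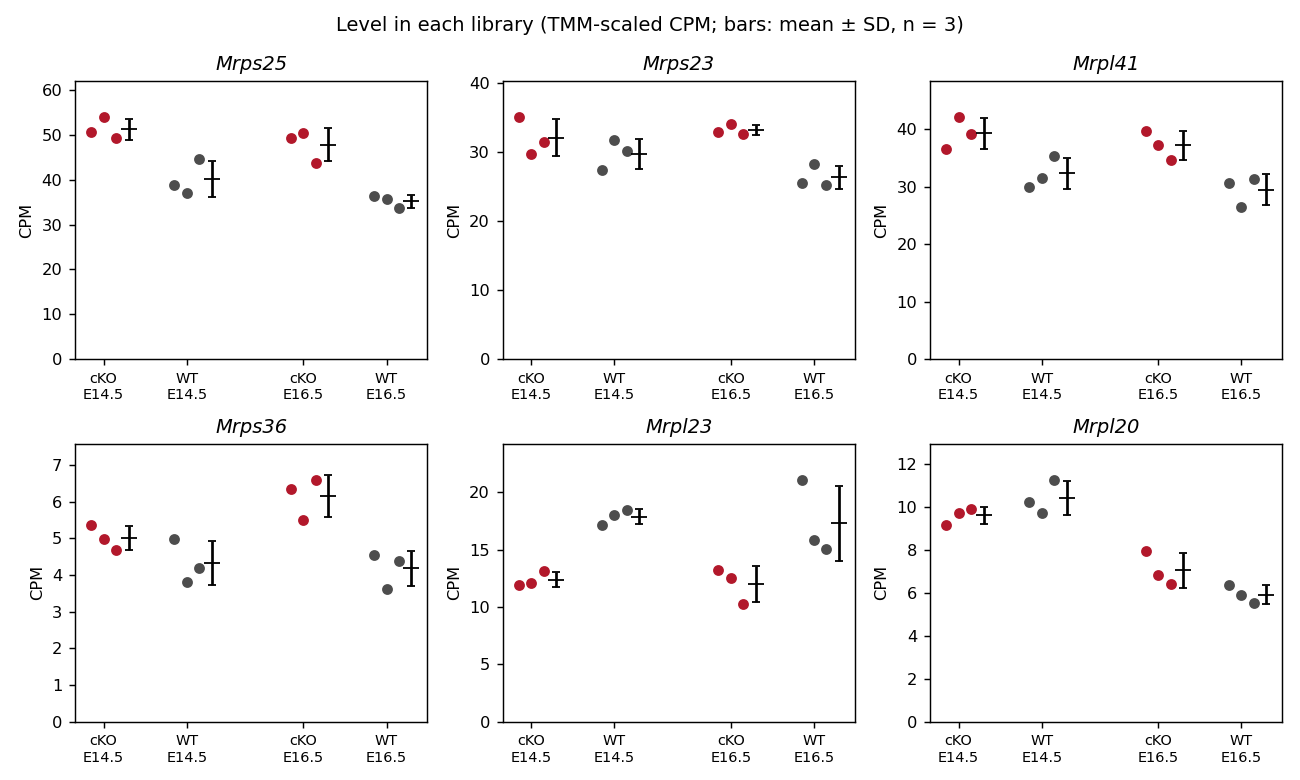
CPM of selected members in each library, cKO left of WT at each age, with bars for the mean ± SD (n = 3). Mrps25 and Mrpl41 lie higher and Mrpl23 lower in all 3 cKO libraries at both ages, while the groups of Mrps23 overlap at E14.5.

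Members that belong together in the structure gave estimates of mixed size. In the stalk and its base, Mrpl10 had log2 fold changes of 0.20 at E14.5 and 0.18 at E16.5, Mrpl12 of 0.22 and 0.17, and Mrpl11 of -0.04 and -0.16. The paralogs of bacterial S18 differed likewise: Mrps18c, at 0.16 and 0.31, lay above Mrps18b (0.07 and 0.08) and Mrps18a (0.09 and -0.02). Mrps30 was at 0.07 and 0.08. None of these passed the test at either age, and with SEs between 0.0965 and 0.181 their differences from each other were not tested.

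The E14.5 and E16.5 comparisons share no library, so each gives its own values for the members. Both estimates were positive for 56 members (71.8%, against 44.4% of all genes tested), both were negative for 5, and the signs differed for 17. The share with the same sign was 78.2% over members and 82.1% over all genes. Across members the estimates of the 2 ages had a Pearson r of 0.652 and a Spearman rho of 0.614, and across all genes 0.717 and 0.769; genes are not independent replicates, and all values share the libraries. The cKO libraries were all above the WT libraries at both ages for 9 members, Mrpl1, Mrpl13, Mrpl18, Mrpl28, Mrpl37, Mrpl41, Mrpl42, Mrps7 and Mrps25, and all below them at both ages for 2, Mrpl16 and Mrpl23. Among the 14514 genes tested at both ages 7.2% lay above and 10.9% below in this way.

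**Figure D5:**
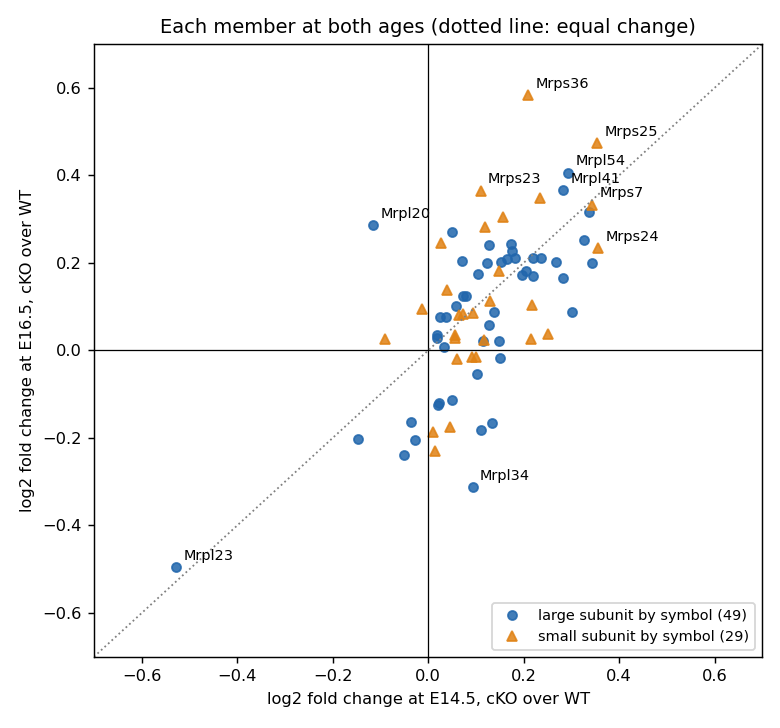
Log2 fold change of cKO over WT at E16.5 against that at E14.5 for the 78 members, by subunit. Most points fall in the quadrant where both are positive, 56 of 78, and Mrpl23 stands apart in the opposite one.

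In a contrast averaged over both ages in all 12 libraries, added after the values were seen, 12 members rose and 1 fell, against 11.9% and 15% of the 15338 genes tested. The members that rose were 6 of the small subunit symbols (Mrps7, Mrps23, Mrps24, Mrps25, Mrps27 and Mrps36) and 6 of the large (Mrpl13, Mrpl18, Mrpl28, Mrpl37, Mrpl41 and Mrpl49). The smallest adjusted p was that of Mrps25 (log2 fold change 0.41, SE 0.0670, edgeR adjusted p = 0.00113), and Mrpl23 was the member that fell (-0.51, SE 0.101, edgeR adjusted p = 0.00338). Mrps7 followed at 0.34 (SE 0.0644, edgeR adjusted p = 0.00298), with 26.8, 26.9 and 25.6 CPM in cKO, against 19.3, 20.9 and 24.1 CPM in WT at E16.5. With embryo sex in the fit 6 rose (Mrps7, Mrps25, Mrpl28, Mrpl37, Mrpl41 and Mrpl49) and Mrpl23 fell, against 5.89% and 9.36% of genes. With 1 library left out between 9 and 15 members rose, and the share of all genes in those fits is not given here.

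Mrpl28, Mrpl37 and Mrpl49 were named after their values were seen. Mrpl28, a homologue of a bacterial large subunit protein, had 51.2, 43.6 and 46.7 CPM in cKO, against 36.6, 38.3 and 36.7 CPM in WT at E14.5, and 37.5, 36.8 and 37.7 CPM in cKO, against 34.8, 32.2 and 32.6 CPM in WT at E16.5. Mrpl37, without a bacterial counterpart, had 30.4, 30.0 and 28.7 CPM in cKO, against 26.1, 22.2 and 22.2 CPM in WT at E14.5, and 28.5, 24.9 and 25.7 CPM in cKO, against 23.4, 21.3 and 20.2 CPM in WT at E16.5. Mrpl49 had 45.1, 40.6 and 40.6 CPM in cKO, against 32.5, 34.5 and 33.7 CPM in WT at E14.5, and 44.7, 43.4 and 37.1 CPM in cKO, against 36.0, 34.2 and 37.1 CPM in WT at E16.5. Groups were separate at both ages for Mrpl28 and Mrpl37 and at E14.5 for Mrpl49, whose cKO C and WT C met at E16.5.

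Whether the cKO effect differed between ages was tested as an interaction over the 12 libraries. No member and no other gene of the 15338 tested passed in edgeR, nor in DESeq2, and 2 members had an unadjusted p under 0.05 in edgeR, Mrpl34 (E16.5 effect minus E14.5 effect -0.39) and Mrpl20 (0.42), where 2.07% of genes tested did. Mrpl36 (-0.28, SE 0.232) and Mrpl33 (-0.28, SE 0.183) were next on the lower side. The median difference over members was -0.00341 on the log2 scale, with a median SE of 0.159. A difference between ages was not detectable for members such as Mrps23 (0.27, SE 0.125) and Mrps36 (0.39, SE 0.237), whose E16.5 estimates were the larger.

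The WT libraries of the 2 ages were compared directly; these WT libraries are also those of the cKO comparisons, and age cannot be told apart from any batch of each age. A positive estimate was seen for 21 of 78 members, with a median log2 difference, E16.5 over E14.5, of -0.13 over members and -0.01 over all genes. A single member passed in edgeR, where 2.15% of genes did, 0.763% higher and 1.39% lower. It was Mrpl20 (chr4:155803618-155808829, plus strand), with 6.35, 5.92 and 5.51 CPM in WT A, B and C of E16.5, against 10.2, 9.71 and 11.3 CPM in WT A, B and C of E14.5 (log2 difference -0.82, SE 0.134, edgeR adjusted p = 0.0231). The call was kept without WT B of E14.5 and lost without each of the other 5 WT libraries (adjusted p between 0.0599 and 0.143) and with embryo sex in the fit (0.0651), where 0.0522% of genes were lower. In cKO, Mrpl20 was at 7.96, 6.83 and 6.40 CPM at E16.5 and 9.16, 9.75 and 9.92 CPM at E14.5.

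Other members with large estimates between the WT ages were Mrpl54 (-0.77, SE 0.201, edgeR adjusted p = 0.0572) and Mrpl14 (-0.55, SE 0.141, adjusted p = 0.0546) on the lower side, and Mrps6 (0.49, SE 0.118, adjusted p = 0.0515), Mrpl48 (0.30, SE 0.144, adjusted p = 0.191) and Mrpl30 (0.29, SE 0.0797, adjusted p = 0.0657) on the higher side. Mrps6 had 22.1, 25.1 and 20.8 CPM in WT of E16.5, against 16.1, 16.9 and 15.4 CPM in WT of E14.5, without overlap. It shares 145 exon bases with Slc5a3 on the same strand, where a fragment cannot be assigned to one gene. DESeq2 called 2 members higher and 7 lower, against 6.92% and 7.26% of genes. Proliferation markers had a median log2 difference of -0.71 and pan-neuronal markers of 0.43 between the same WT libraries; their part in the result was not tested.

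The ribosomal RNAs of the same ribosome are transcribed from mitochondrial DNA. Rnr2, the RNA of the large subunit, was at 44.3, 50.9 and 101 CPM in cKO and 39.0, 67.6 and 60.3 CPM in WT A, B and C at E16.5, against 2551, 3585 and 2685 CPM in cKO and 2465, 111 and 3233 CPM in WT at E14.5. It was lower at E16.5 in WT (log2 difference -5.13, edgeR adjusted p = 0.0302), with WT B of E14.5 near the E16.5 level, and the labels do not say how ribosomal RNA was removed or messenger RNA selected. The cKO effect on Rnr2 was 0.61 at E14.5 and 0.25 at E16.5 on the log2 scale (edgeR adjusted p = 0.745 and 0.628). Rnr1, the RNA of the small subunit, was at 10.7, 15.2 and 13.8 CPM in cKO, against 12.2, 2.41 and 14.6 CPM in WT at E14.5, and at 2.74, 1.32 and 2.68 CPM in cKO, against 0.961, 2.99 and 1.91 CPM in WT at E16.5.

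Proteins of the mitochondrial ribosome with other symbols gave no call in 5 of 5 tested at either age. Of all genes tested 2.01% were called at E14.5 and 15.9% at E16.5, so a set of this size could hold no call at these shares. Dap3, a small subunit protein that binds GTP, was at 0.23 and 0.28 (log2 fold change at E14.5 and E16.5), Ptcd3 at 0.19 and 0.12, Aurkaip1 at 0.14 and 0.11, Chchd1 at -0.19 and -0.27, and Gadd45gip1 at -0.36 and -0.77 (edgeR adjusted p = 0.0795 at E16.5).

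Among factors that assemble the ribosome and modify its RNA, 34 were tested. At E14.5 1 rose, where 0.352% of all genes tested were higher and 1.66% lower. At E16.5 2 rose and 1 fell, where 5.98% were higher and 9.88% lower. The medians of these factors were 0.07 and 0.12. Nsun4, an RNA methyltransferase that takes part in joining the subunits, had 17.8, 17.98 and 16.2 CPM in cKO, against 11.8, 10.2 and 10.99 CPM in WT at E14.5, and 17.3, 17.1 and 18.2 CPM in cKO, against 12.2, 12.4 and 11.5 CPM in WT at E16.5. It rose at both ages (log2 fold change 0.65 and 0.58, edgeR adjusted p = 0.0452 and 0.00833), though the E14.5 call was lost without any 1 of the 6 libraries of that age (adjusted p between 0.0646 and 0.197) and with embryo sex in the fit (0.0966). Tfb1m, which dimethylates the small subunit RNA, rose at E16.5 (0.59, adjusted p = 0.0209), with 8.59, 8.92 and 8.29 CPM in cKO, against 5.77, 5.86 and 5.87 CPM in WT, and lost its call without WT A (adjusted p = 0.0746), WT B (0.0820), WT C (0.0518) or cKO B (0.0868). Rbfa, a small subunit maturation factor, fell at E16.5 (-0.78, adjusted p = 0.00616), with 10.2, 9.07 and 9.66 CPM in cKO, against 15.1, 17.9 and 17.6 CPM in WT, and passed without each library in turn.

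Of 22 mitochondrial aminoacyl-tRNA synthetases and related enzymes, which charge the tRNAs for this ribosome, none passed at E14.5 and 3 rose at E16.5. They were Wars2 (log2 fold change 0.68, edgeR adjusted p = 0.0120), Qrsl1, a subunit of the amidotransferase that makes glutaminyl-tRNA (0.39, adjusted p = 0.0300), and Cars2 (0.39, adjusted p = 0.0348). The call of Cars2 was lost without any 1 of the 6 libraries (adjusted p between 0.0530 and 0.0995) and with all 12 libraries in one fit, with or without embryo sex (0.105 and 0.0760), that of Qrsl1 without WT A, WT B, cKO B or cKO C (between 0.0669 and 0.106), and that of Wars2 without WT B (0.0529). Of 12 genes for mitochondrial transcription and DNA maintenance, none passed at E14.5, and Polg, the DNA polymerase (0.32, adjusted p = 0.0126), and Polrmt, the RNA polymerase (0.35, adjusted p = 0.0235), rose at E16.5. Polg lost its call without WT B (adjusted p = 0.0661) or cKO B (0.0589) and with embryo sex in the fit (0.0670), and Polrmt without WT A, WT B, WT C or cKO B (between 0.0580 and 0.105) and with embryo sex (0.0709). None of 13 mitochondrial translation factors passed at either age, and their medians were 0.03 and 0.02. Of all genes tested 0.352% were higher and 1.66% lower at E14.5, and 5.98% higher and 9.88% lower at E16.5.

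Of 12 regulators of nuclear genes for mitochondria, Gabpa, the DNA-binding subunit of GABP, rose at both ages, and the other 11 did not pass at either age (genes tested: 0.352% higher at E14.5, 5.98% at E16.5). Nrf1, the gene for NRF1, had log2 fold changes of 0.03 at E14.5 and 0.14 at E16.5, Yy1 of 0.17 and 0.21, Gabpb1, which encodes a partner subunit of GABP, of -0.03 and 0.20, and the coactivator gene Ppargc1a of -0.51 and -0.29. Gabpa had 104, 110 and 113 CPM in cKO A, B and C, against 83.7, 79.5 and 79.2 CPM in WT A, B and C at E14.5, and 93.6, 104 and 106 CPM in cKO, against 71.2, 73.8 and 80.1 CPM in WT at E16.5. The groups were separate at both ages (log2 fold change 0.43 and 0.46, SE 0.0819 and 0.0766, edgeR adjusted p = 0.0484 and 0.00786). The E16.5 call held under every alternative tried, and the E14.5 call was lost without any 1 of the 6 libraries of that age (adjusted p between 0.0506 and 0.227), with other size factors (0.0519), with no filter on low counts (0.0556) and with embryo sex in the fit (0.118). The members with the ETS motif in their promoter window, the letters GABP binds, had median log2 fold changes of 0.10 at E14.5 and 0.09 at E16.5, and those without it of 0.13 and 0.10. For the NRF1 motif the medians were 0.14 and 0.17 with it (13 members) and 0.10 and 0.09 without it, and for the YY1 motif 0.13 and 0.08 with it (21 members) and 0.10 and 0.10 without it. With any of the 3 motifs the medians were 0.12 and 0.09 (55 members), and without them 0.04 and 0.07 (14 members). The differences between these groups of members were not tested.

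A protein-coding gene on the opposite strand started within 1000 bases upstream for 18 of 78 members (23.1%), against 9.77% of 13437 genes tested. Cyb5rl, opposite Mrpl37, rose at E16.5 (log2 fold change 1.17, edgeR adjusted p = 0.0381) and was at 0.93 at E14.5 (adjusted p = 0.133), beside 0.32 and 0.34 for Mrpl37; its call was lost without WT A (adjusted p = 0.105), WT B (0.0794), WT C (0.0735), cKO A (0.0506) or cKO B (0.139). Pnpla7, opposite Mrpl41, was at 0.48 at E16.5 (adjusted p = 0.127), and Helq, opposite Mrps18c, at 0.29 (adjusted p = 0.0666). Mitd1, opposite Mrpl30, was at 0.49 at E16.5 (adjusted p = 0.0553), beside 0.02 for Mrpl30. Some pairs differed in sign at E16.5, such as Mrpl54 (0.41) with Apba3 (-0.09) and Mrpl50 (0.20) with Zfp189 (-0.10). No neighbour besides Cyb5rl passed at either age. Counting used strand, so reads of such pairs can be told apart. Mrpl53 shares 14 exon bases with Ccdc142 on its own strand, and no other member besides it and Mrps6 shared exon bases with another gene on its strand.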

How the data were processed

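Per the submitters' processing notes reads were aligned with STAR 2.5.2b to mm10, and per the file headers paired fragments were counted per RefSeq gene with featureCounts 1.5.2 (strand setting 2, at least 25 overlapping bases, chimeric and unpaired fragments left out, no option set for multi-mapping reads). The deposited counts are raw whole numbers per gene. The authors' deposited tables add log2 fold changes (WT over KO) with p-values from DESeq2, for which the same notes name version 1.14.1; their 12 columns of normalised library values were not used. Members and lists were chosen with earlier results of these data known.

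Counts of all genes were tested with edgeR 4.0.16 (limma 3.58.1, R 4.3.3) by the quasi-likelihood test with trimmed-mean scaling, a filter on low counts by group and p-values adjusted by Benjamini-Hochberg across every gene that passed the filter (threshold 0.05). For cKO over WT the fit held the 6 libraries of 1 age; all 12 libraries were fitted together for the age difference and the WT age comparison. CPM uses the scaled library sizes. DESeq2 1.42.0, other scalings, no filter, 1 fit of all libraries, embryo sex, a replicate block and leaving out each library were the alternatives. Embryo sex was fitted with all 12 libraries, where only those of E16.5 inform the sex term, so it cannot separate sex from genotype at E14.5. Members named are those called (up to 10 per direction), the 3 largest estimates per direction in each comparison, the 4 highest and 3 lowest per subunit, and fixed structural groups; others are said to be chosen after their values were seen, or are named for not overlapping at both ages, for their promoter or neighbour, or for a call under an alternative.

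Title numbers are shared by 1 cKO and 1 WT library at each age. Deviations from the group means correlated between same-numbered libraries at E16.5 with r of 0.281, 0.210 and 0.112. At E14.5 r was 0.272, 0.304 and -0.00218. Between differently numbered cKO and WT libraries r ran from -0.267 to 0.107 at E16.5 and from -0.297 to 0.0905 at E14.5. The main fits of both ages ignored these numbers, and a replicate block by them was fitted only as an alternative. The labels do not say that libraries came from separate litters, so p-values reflect library-to-library spread only, possibly technical. The test was checked on simulated data: at this number of libraries it rarely called changes as small as most of those of the members, and the share of false calls was above the threshold in the fits of each age and of the age difference. A member that missed the threshold is therefore not shown to be unaltered.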

Additional observations from a re-analysis of the deposited data

How the results depend on the processing

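At E14.5 the count of members called was 0 in either direction with each library left out. The same held with other size factors, library totals, no filter or embryo sex. By contrast, 1 fit of all 12 libraries called 4 higher and 1 lower, and DESeq2 3 higher and 1 lower. The replicate block called 1 lower (Mrpl23), and the share of all genes called under it is not given here. The same-numbered libraries of that age did not all correlate. At E16.5 all 12 libraries in one fit called 5 higher and 2 lower, and library totals 5 higher. DESeq2 called the same 3 higher as the main fit and 1 lower. The replicate block called 8 higher and 2 lower, and leaving out single libraries between 0 and 4 higher. The E16.5 median was 0.14 with library totals, and the log2 difference of the summed level 0.15 against 0.08, a shift that all genes share under that scaling. Between WT ages DESeq2 called 2 higher and 7 lower, and embryo sex left 0 lower. Leaving out single libraries gave 0 to 2 higher and 0 to 6 lower (6 without WT B of E14.5), with medians between -0.148 and -0.0800. For library totals, other size factors, no filter and single libraries left out, the share of all genes called is not given here. Such counts therefore do not set members apart from other genes. The median age difference was -0.0499 with no filter and between -0.0600 and 0.00494 with single libraries left out, and the contrast averaged over both ages had 6 higher with embryo sex. No replicate block was fitted for the WT ages, which share no numbers. No called value changed sign. Of the values that answer a comparison, 192 stayed within their margins and 31 moved. Among the other values followed, 747 stayed the same, 80 became weaker, 22 became stronger and 15 moved. The causes were not tested. Every member had at least 55 counts in every library.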
